A study of Mus musculus with 16 samples.

Results

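Lysosomes break down the sugar chains of glycoproteins, glycosaminoglycans and glycosphingolipids, and the 31 genes described here encode enzymes and cofactors of that breakdown together with 4 lysosomal membrane and cholesterol export proteins. They were chosen by gene symbol, by a rule that reads no measured value but with earlier results of these data known, and all 31 symbols were found among the 37583 genes counted. *Glb1* appears as 2 overlapping entries, so the members make up 32 entries, and all 32 passed the filter on low counts in every comparison. RNA from 2 brain regions, the cortex and the cerebellum, was sequenced in 4 wild-type mice and in 4 carriers of the *Slc39a8* A391T (A393T) variant, all of strain C57BL/6J and without treatment, as 16 libraries with 1 per region and mouse. The wild-type mice were male and 12 weeks old, whereas the age of the A391T mice is not given in the sources used here. *Slc39a8* encodes a manganese and zinc transporter, and A391T changes its protein rather than removing its transcript, so its level does not check the genotype labels.

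Most lysosomal hydrolases reach the organelle with a mannose 6-phosphate tag and then work in a fixed order, each enzyme removing the residue that the enzyme before it has exposed. A block at any step leaves undigested substrate, and inherited loss of many of these genes causes a storage disease that affects the brain. Small activator proteins such as the saposins lift lipid substrates out of membranes for the hydrolases, and the transcription factor TFEB raises many lysosomal genes together through an E-box element in their promoters.

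This element was looked for in the 250 bases before each transcription start, because it is the sequence by which these genes are known to be controlled as a set. RefSeq promoter sequences of the GRCm38.p6 assembly were matched for 26 of the 31 members, and *Aga*, *Hgsnat*, *Galns*, *Asah1* and *Npc1* had none. The motif TCACGTG, on either strand, was present in 8 of these 26 members (30.8%) and in 3.58% of all 27025 genes with a promoter entry. The shorter E-box CACGTG, which every TCACGTG contains, was in the same 8 members and in 6.86% of all genes. The longer palindrome TCACGTGA was in *Ctsa* and *Gla* and in 0.907% of all genes. The stretches that hold the motif are printed below from 5′ to 3′ on the strand of the gene, in lower case, with the match and any completing base in capitals. *Lamp1* held 4 sites within the 81 bases before its start (chr8:13159080-13159160, plus strand) and *Gla* held 2 (chrX:134601174-134601252, minus strand). The others held 1 site each, *Ctsa* at chr2:164833741-164833772 (plus), *Naglu* at chr11:101070001-101070046 (plus), *Sgsh* at chr11:119355514-119355559 (minus), *Gaa* at chr11:119267803-119267848 (plus), *Glb1* at chr9:114401010-114401055 (plus) and *Arsa* at chr15:89477425-89477460 (minus).
Lamp1: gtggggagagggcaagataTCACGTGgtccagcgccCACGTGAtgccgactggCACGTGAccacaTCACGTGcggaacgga
Gla: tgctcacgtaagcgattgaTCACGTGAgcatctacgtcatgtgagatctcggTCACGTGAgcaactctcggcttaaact
Ctsa: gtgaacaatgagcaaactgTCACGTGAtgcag
Naglu: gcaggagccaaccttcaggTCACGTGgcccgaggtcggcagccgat
Sgsh: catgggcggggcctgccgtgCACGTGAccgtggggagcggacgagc
Gaa: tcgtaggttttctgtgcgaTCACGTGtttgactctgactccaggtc
Glb1: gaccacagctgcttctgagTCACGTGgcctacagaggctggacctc
Arsa: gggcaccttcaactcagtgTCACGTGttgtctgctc

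The depth was 20813432 to 30497206 counts on genes per library. Cortex and cerebellum markers set the labelled regions apart in all 16 libraries. The 7 cortex markers found summed to 583 to 649 CPM (counts scaled to a common total) in cortex and 61.9 to 77.1 CPM in cerebellum, and 8 cerebellum markers to 56.4 to 88.3 CPM in cortex and 5752 to 6392 CPM in cerebellum. *Slc39a8* itself was low, with 75 to 171 counts per library, and A391T and wild type differed by a log2 fold change of 0.17 (SE 0.18) in cortex and -0.03 (SE 0.13) in cerebellum. The A391T cerebellum library CBLM445 stood apart. Chi-square divided by its degrees of freedom was 62.3 to 74.5 between it and the other libraries of its group, and 3.08 to 34.4 for all other pairs within a group. The highest of the latter, 34.4 and 29.2, were pairs of the wild-type cortex library CTX480 with CTX448 and CTX479, and its pair with CTX447 had 15.1. CTX480 also had the highest share not uniquely aligned (12.1%) of the 16 libraries. For 8 of the 16 libraries, those of 4 mice, the name in the table of normalized values differed from that of the count file, so that the genotype of these mice is uncertain. Libraries are called here by the names of the count files, with CTX for cortex, CBLM for cerebellum and the number of the mouse.

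The members spanned about 3 orders of magnitude in level. Levels are given in TPM, computed here from counts per gene length at a common total, so that genes can be compared with each other. In wild-type cortex the median over the 32 entries was 33.97 TPM, against 19.2 TPM over all genes tested, and 22 entries lay above the latter value. In wild-type cerebellum the medians were 36.4 and 22.2 TPM, and 24 entries lay above the latter. Summed over the entries, the level was 4770 ± 110 TPM in wild-type cortex and 5110 ± 154 TPM in wild-type cerebellum (SD, n = 4 each).

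More than any other member, *Psap*, the precursor of the saposins that activate sphingolipid breakdown, set this sum. With libraries in the order of mouse number here and in the values that follow, its levels were 2701, 2670, 2514 and 2572 TPM in the wild-type cortex libraries and 2864, 2977, 2764 and 2688 TPM in the wild-type cerebellum libraries. *Lamp1*, a heavily glycosylated protein of the lysosomal membrane, followed with 509, 515, 514 and 505 TPM in cortex against 717, 690, 652 and 668 TPM in cerebellum. The cerebellum libraries were all above the cortex libraries for *Lamp1*, whereas those of *Psap* overlapped. Acid sphingomyelinase, *Smpd1*, came next in the mean over the wild-type libraries on the deposited gene lengths, with 209, 206, 209 and 216 TPM in cortex against 230, 233, 218 and 220 TPM in cerebellum. *Gaa*, which releases glucose from glycogen, was close to it at 239 ± 33.3 TPM in cortex against 188 ± 8.55 TPM in cerebellum, and these 2 members did not differ beyond their spread in cortex. At the other end, *Sgsh* and *Hyal1* were the lowest members in both regions on these lengths, at 2.74 ± 0.751 and 2.76 ± 0.498 TPM in cortex against 5.20 ± 0.592 and 5.15 ± 0.683 TPM in cerebellum (SD, n = 4 each), and did not differ from each other beyond that spread. *Hyal1* had 59 to 149 counts per library, *Sgsh* 88 to 286, the shorter *Glb1* entry 108 to 233 and *Aga* 125 to 278.

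The order of the levels depends on the gene lengths. For 3 entries, *Ids*, *Sgsh* and *Fuca2*, the deposited length differed more than 1.5 times from the exon bases of the NCBIM37 annotation (8681 against 5102 bases, 7753 against 4414 and 2704 against 6161). On exon bases, an alternative added after the data were seen, *Ids* had 388 ± 11.1 TPM in wild-type cortex and 171 ± 7.89 TPM in wild-type cerebellum, and its mean over both (280 TPM) came after that of *Lamp1* and above those of *Gaa* (216 TPM) and *Smpd1* (211 TPM). *Sgsh* then had 4.68 ± 1.28 TPM (cortex) and 8.90 ± 1.02 TPM (cerebellum), against 2.78 ± 0.503 and 5.20 ± 0.691 TPM for *Hyal1*, so that their cerebellum values no longer fell within the same spread. *Fuca2* was at 25.5 ± 2.15 and 30.0 ± 1.12 TPM. Of the exon bases of *Hyal1* and *Sgsh*, 52.3% and 21.6% also lie on other genes. Entries ambiguous between genes were left out of the counts but these bases stayed in the lengths, so both levels may be too low. Fold changes between regions do not use the lengths.

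**Figure D1:**
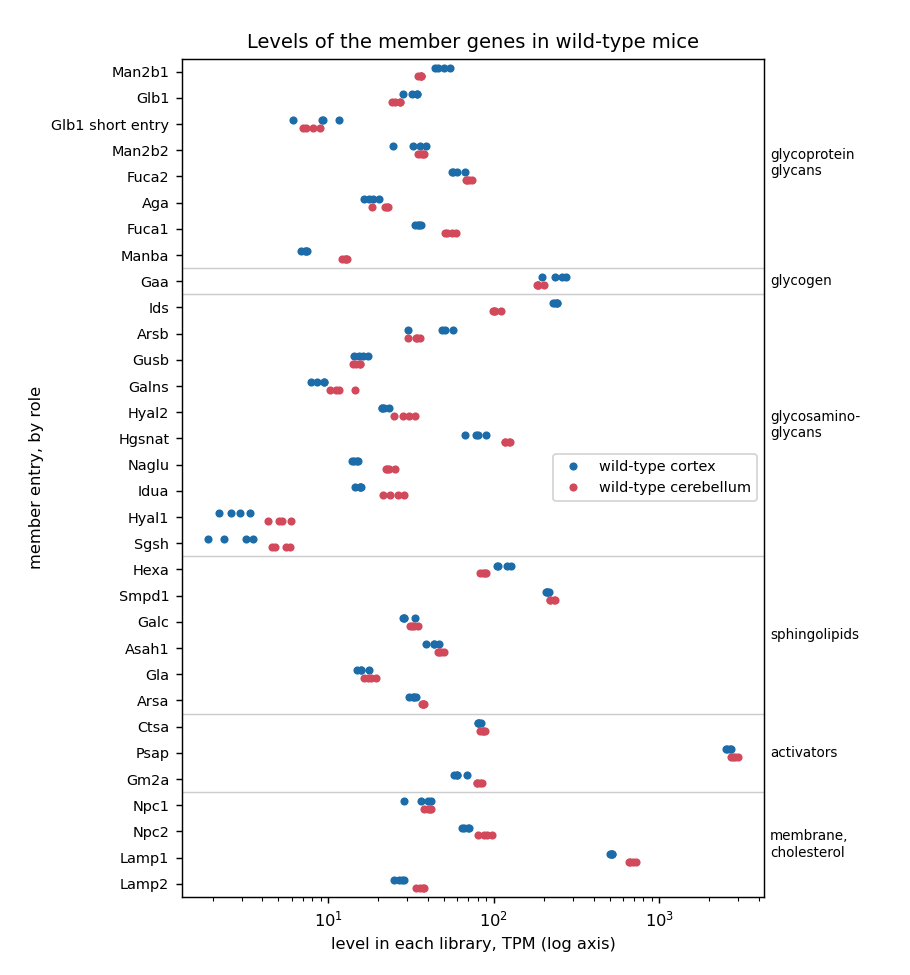
Level of each member entry in the 4 wild-type cortex and 4 wild-type cerebellum libraries, in TPM on a log axis, with the entries grouped by role; each point is 1 library. *Psap* has the highest level in every library (2514 to 2977 TPM), *Lamp1* follows at 505 to 717 TPM, and *Sgsh* and *Hyal1* reach at most 5.84 and 5.98 TPM, while the 2 colours separate most widely for *Ids*. Levels use the deposited gene lengths.

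The question for the wild-type mice was which glycan genes differ between cortex and cerebellum. In wild-type mice 12 member entries were higher in cerebellum and 7 were lower, and 13 were not called, with the quasi-likelihood test of edgeR (adjusted p under 0.05 by the Benjamini-Hochberg method over all 16040 genes tested). Of all genes tested, 34.7% were called higher and 33.1% lower. The share of member entries called higher was close to that of all genes, and the share called lower was smaller. With the 2-fold criterion of the study added, 1 member was left, *Ids*, lower in cerebellum, and no member was higher, whereas 14.2% of all genes were lower and 10.5% higher by that rule. The median absolute log2 fold change was 0.27 over the members and 0.46 over all genes. The signed medians were 0.03 and 0.02. As the libraries come from bulk tissue, fewer cells of a type and less RNA per cell cannot be told apart in any of these differences. Fold changes rest on TMM scaling, and for the members the ratio of mean TPM was higher than the fitted one by 0.15 at the median on the log2 scale in wild type and by 0.10 in A391T, so a fitted value near 0 goes with a slightly higher TPM in cerebellum.

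**Figure D2:**
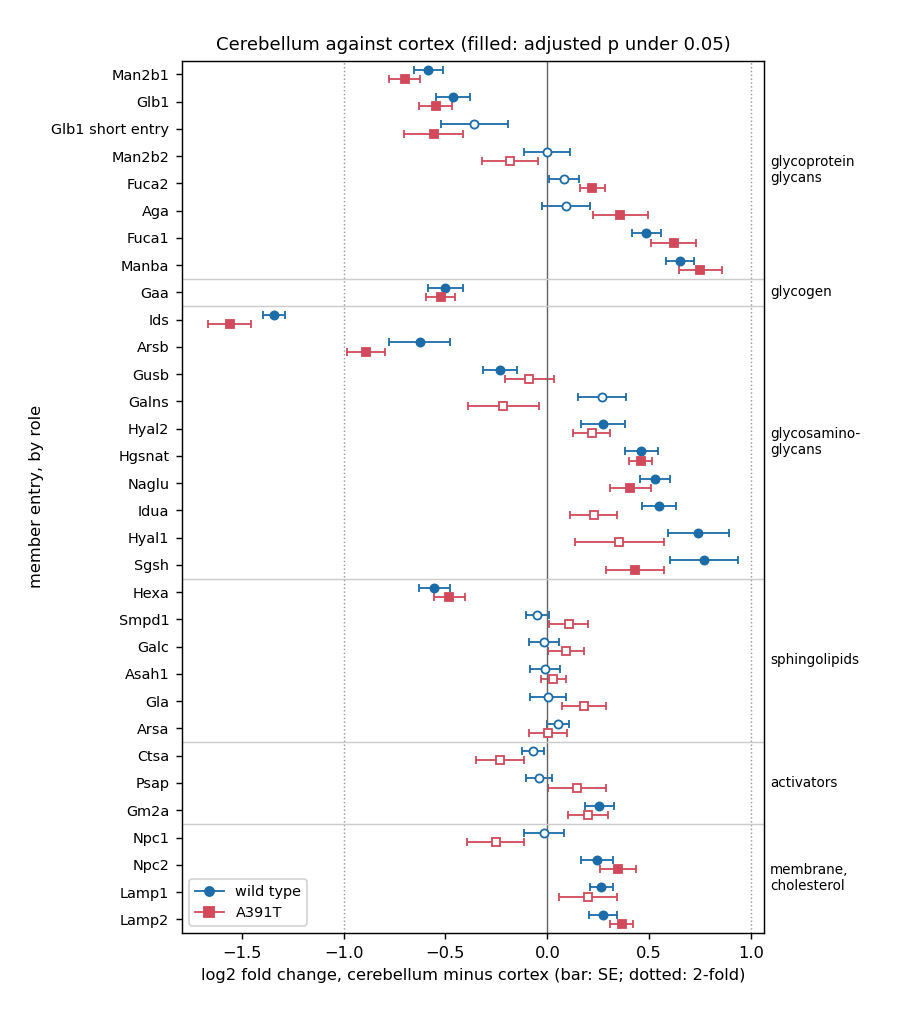
Log2 fold change of each member entry, cerebellum minus cortex, in wild-type (circles) and A391T (squares) mice, with bars for the standard error, filled symbols for an adjusted p under 0.05 and dotted lines at a 2-fold change. *Ids* is the one member beyond the dotted lines in both genotypes, and the sphingolipid hydrolases other than *Hexa* lie close to 0.

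*Ids* encodes iduronate 2-sulfatase, which removes sulfate from the iduronic acid of heparan and dermatan sulfate and is lost in Hunter syndrome. The gene lies on the minus strand of chromosome X of the NCBIM37 (mm9) assembly (chrX:67596244-67618260), and no other annotated gene overlaps its 5102 annotated exon bases. The deposited length of 8681 bases is longer, so overlap beyond the annotated exons was not checked. Its levels in wild-type cortex were 239, 241, 226 and 233 TPM, and in wild-type cerebellum 101, 98.9, 110 and 102 TPM. In the A391T mice they were 245, 235, 266 and 242 TPM in cortex against 66.0, 95.5, 101 and 99.5 TPM in cerebellum. In both genotypes every cerebellum library was far below every cortex library. The lowest value was that of CBLM445. The log2 fold change was -1.34 (SE 0.06, adjusted p = 2.9e-09) in wild type, or 2.54-fold higher in cortex. In A391T it was -1.56 (SE 0.10, adjusted p = 5.8e-07), and without CBLM445 it was -1.46 (SE 0.05). With 4598 to 16943 counts per library, counting error was small beside these differences.

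The glycosaminoglycan enzymes held 9 of the 19 wild-type calls. For comparison, 34.7% of all genes were called higher and 33.1% lower. Of the 10 members that act on heparan, dermatan, keratan or chondroitin sulfate or on hyaluronan, 6 were higher in wild-type cerebellum, 3 were lower and 1, *Galns*, was not called (log2 fold change 0.27, SE 0.12, adjusted p = 0.066). Their median log2 fold change was 0.37, against 0.02 over all genes. In A391T 3 of the 10 were higher, 2 were lower and 5 were not called, with a median of 0.22 against 0.03 over all genes, of which 31.6% were called higher and 31.3% lower. Without CBLM445, a choice made after its values were seen, the A391T calls among the 10 were the same as in wild type. *Idua*, *Sgsh*, *Naglu*, *Hgsnat*, *Hyal1* and *Hyal2* were then higher, and *Ids*, *Arsb* and *Gusb* lower. The members of the heparan sulfate pathway, grouped after their values were seen, moved in both directions. *Ids* and *Gusb* were lower in cerebellum, whereas *Idua*, *Sgsh*, *Naglu* and *Hgsnat* were higher.

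*Sgsh*, or sulfamidase, removes the sulfate from N-sulfoglucosamine and had the largest log2 fold change among the members higher in wild-type cerebellum, with *Hyal1* within 1 standard error of it. In A391T and over all 8 mice that of *Manba* was larger. *Sgsh* was at 2.35, 3.19, 3.53 and 1.89 TPM in wild-type cortex and at 4.80, 4.60, 5.55 and 5.84 TPM in wild-type cerebellum. The 2 regions did not overlap, and the log2 fold change was 0.77 (SE 0.17, adjusted p = 0.0017). In A391T mice *Sgsh* was at 3.00, 3.49, 3.46 and 2.79 TPM in cortex and at 3.30, 4.73, 4.85 and 5.66 TPM in cerebellum, where CBLM445 fell within the range of cortex. The log2 fold change there was 0.43 (SE 0.14, adjusted p = 0.022), and the call was lost without CTX445, CTX462 or CBLM462 (0.34 to 0.40, adjusted p = 0.06 to 0.067) and with only the mice with matching names (0.23, adjusted p = 0.4). The gene is on the minus strand (NCBIM37 chr11:119204739-119216850), and 21.6% of its 4414 annotated exon bases overlap *Card14* on the other strand. The deposited length is 7753 bases. As the counts are labelled as made without strand, reads there can fall in the ambiguous share, which is left out of the counts of both genes.

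*Idua*, the iduronidase that acts after *Ids* has removed the sulfate, rose from 15.4 ± 0.568 TPM in wild-type cortex to 25.0 ± 3.16 TPM in cerebellum, a log2 fold change of 0.55 (SE 0.08, adjusted p = 0.00015). *Naglu*, which removes N-acetylglucosamine, was at 14.5 ± 0.554 and 23.3 ± 1.36 TPM, a log2 fold change of 0.53 (SE 0.07). *Hgsnat*, the membrane transferase that acetylates glucosamine so that *Naglu* can cut it, was at 78.7 ± 9.57 and 120 ± 4.04 TPM, a log2 fold change of 0.46 (SE 0.08). Of these enzymes *Hgsnat* was thus the most abundant, and *Naglu* and *Hgsnat* were also higher in A391T cerebellum, by 0.41 (SE 0.10) and 0.46 (SE 0.06). The beta-glucuronidase gene *Gusb* was lower in wild-type cerebellum by a small margin, with a log2 fold change of -0.23 (SE 0.08, adjusted p = 0.025), and its TPM ranges overlapped (14.4 to 17.4 in cortex, 14.1 to 15.7 in cerebellum). That call was lost with library totals in place of TMM (adjusted p = 0.29), without CBLM447, CBLM479 or CBLM480, and in A391T. It was also lost with all 16 libraries in 1 model (adjusted p = 0.064) and with only the mice with matching names (adjusted p = 0.077).

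*Arsb*, arylsulfatase B, desulfates the N-acetylgalactosamine of dermatan and chondroitin sulfate and was lower in cerebellum. Its wild-type levels were 48.6, 56.9, 50.7 and 30.5 TPM in cortex against 34.3, 30.3, 33.9 and 35.9 TPM in cerebellum, so CTX480 lay within the cerebellum range and the other 3 above it. In A391T mice the values were 50.8, 56.0, 52.2 and 53.6 TPM in cortex against 24.2, 30.8, 32.4 and 36.5 TPM in cerebellum, with no overlap. The log2 fold change was -0.63 (SE 0.15, adjusted p = 0.0031) in wild type and -0.89 (SE 0.09, adjusted p = 1.7e-05) in A391T. In wild type it was -0.78 without CTX480 and -0.38 (adjusted p = 0.21) when only the mice with matching names were used. *Arsb* is on the plus strand (NCBIM37 chr13:94541634-94712971), and 45.3% of its exon bases overlap *Gm17447* on the other strand.

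The hyaluronidases were higher in wild-type cerebellum. *Hyal1*, the lysosomal enzyme, was at 2.19, 3.36, 2.93 and 2.58 TPM in cortex against 5.25, 4.32, 5.06 and 5.98 TPM in cerebellum, with no overlap between regions. The log2 fold change was 0.74 (SE 0.15, adjusted p = 0.001). In A391T mice it was at 2.72, 3.01, 2.72 and 3.72 TPM in cortex against 2.53, 3.80, 5.09 and 5.55 TPM in cerebellum, where CBLM445 was below all cortex libraries, and the log2 fold change of 0.35 (SE 0.22) was not called. On NCBIM37 the gene is at chr9:107479258-107485174 on the plus strand, and 52.3% of its exon bases are shared with *Hyal3* and *Nat6* on the same strand, and reads there cannot be assigned to 1 gene by position. *Hyal2*, which is anchored at the cell surface, had a log2 fold change of 0.27 (SE 0.11, adjusted p = 0.04), and this call was lost with DESeq2 (adjusted p = 0.052) and on leaving out any of 5 wild-type libraries.

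**Figure D3:**
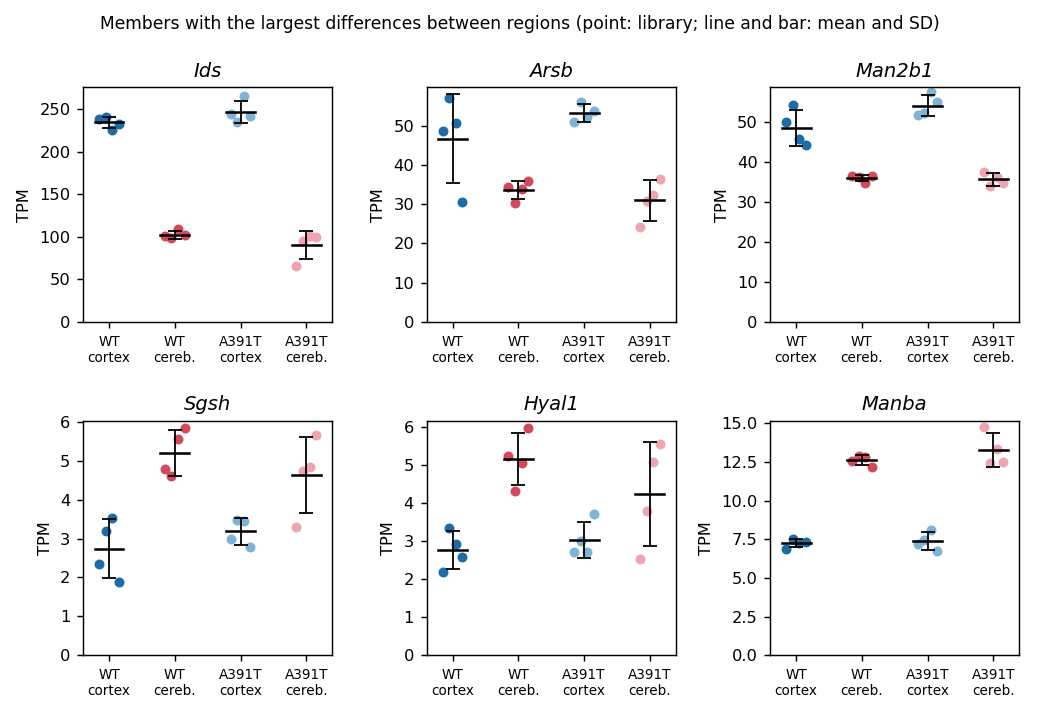
TPM of the 3 members with the largest difference in each direction, in every library of the 4 groups (WT, wild type; cereb., cerebellum), with the mean and the SD over 4 libraries; each axis starts at 0. *Ids*, *Man2b1* and *Manba* separate the regions in both genotypes, 1 wild-type cortex library brings *Arsb* into the cerebellum range, and the lowest A391T cerebellum point of *Ids*, *Arsb*, *Sgsh* and *Hyal1* is CBLM445.

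Among the 8 entries of enzymes that trim glycoprotein glycans, 2 were higher in wild-type cerebellum, 2 were lower and 4 were not called, beside 34.7% and 33.1% of all genes called higher and lower. The mannosidases divided. *Man2b1*, the lysosomal alpha-mannosidase of broad specificity, was at 50.0, 54.3, 45.7 and 44.4 TPM in wild-type cortex and 36.4, 36.3, 34.9 and 36.5 TPM in wild-type cerebellum. *Manba*, the beta-mannosidase that removes the innermost mannose, was at 6.88, 7.48, 7.28 and 7.31 TPM in cortex against 12.6, 12.9, 12.8 and 12.2 TPM in cerebellum. Neither gene's ranges overlapped between regions, and they changed in opposite directions.

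The log2 fold change of *Man2b1* was -0.58 (SE 0.07, adjusted p = 2.5e-05) in wild type and -0.70 (SE 0.08, adjusted p = 2.3e-05) in A391T. That of *Manba* was 0.65 (SE 0.07, adjusted p = 6.2e-06) and 0.75 (SE 0.11, adjusted p = 0.00014). In A391T mice *Man2b1* was at 51.8, 52.4, 57.6 and 54.9 TPM in cortex against 37.5, 34.1, 36.4 and 34.8 TPM in cerebellum, and *Manba* was at 7.21, 7.45, 8.12 and 6.75 TPM and at 14.8, 12.4, 13.4 and 12.5 TPM. The regions were thus as clearly apart as in wild type. A related alpha-mannosidase, *Man2b2*, had a log2 fold change of 0.00 (SE 0.11) in wild type and -0.18 (SE 0.14) in A391T and was not called in either. *Man2b1* lies on the plus strand of chromosome 8 (NCBIM37 chr8:87607168-87622638) and *Manba* on the plus strand of chromosome 3 (chr3:135148575-135234368), and no exon base of either overlaps another gene.

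Of the fucosidases, *Fuca1* was called higher in cerebellum in both genotypes and *Fuca2* in A391T alone. *Fuca1*, the lysosomal alpha-L-fucosidase, rose from 35.0 ± 1.21 TPM in wild-type cortex to 54.4 ± 3.57 TPM in cerebellum, a log2 fold change of 0.49 (SE 0.07, adjusted p = 0.0001), and by 0.62 (SE 0.11) in A391T. *Fuca2*, which is largely secreted, was not called in wild type (0.08, SE 0.07) and was higher in A391T cerebellum by 0.22 (SE 0.06, adjusted p = 0.01). *Aga*, which cuts the bond between asparagine and the glycan, had a log2 fold change of 0.09 (SE 0.12) in wild type and 0.36 (SE 0.14, adjusted p = 0.042) in A391T. The A391T call of *Aga* was lost with the replicate block (adjusted p = 0.076) and without any of 6 libraries.

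*Glb1*, the beta-galactosidase that also acts on the ganglioside GM1, and *Gaa*, the glycogen enzyme of the set, were lower in cerebellum in both genotypes. *Glb1* was at 32.3 ± 2.80 TPM in wild-type cortex and 26.1 ± 1.46 TPM in cerebellum, a log2 fold change of -0.46 (SE 0.08), and *Gaa* had one of -0.50 (SE 0.09). The A391T values were -0.55 (SE 0.08) and -0.52 (SE 0.07). The shorter *Glb1* entry, which lies within the longer one and shares 5.65% of its exon bases with it, was not called in wild type (-0.36, SE 0.16, adjusted p = 0.073) and was lower in A391T cerebellum (-0.56, SE 0.14, adjusted p = 0.0069).

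The 6 members grouped as sphingolipid hydrolases mostly differed little between regions. *Glb1*, which also acts on a ganglioside, was grouped with the glycoprotein enzymes. One of the 6, *Hexa*, was lower in wild-type cerebellum, and the other 5 were not called in either genotype. Of all genes, 33.1% were called lower and 34.7% higher in wild type, and 31.3% and 31.6% in A391T. *Hexa*, the alpha subunit of beta-hexosaminidase that is lost in Tay-Sachs disease, was at 115 ± 11.1 TPM in wild-type cortex and 86.7 ± 3.05 TPM in cerebellum, with log2 fold changes of -0.55 (SE 0.08, adjusted p = 5.7e-05) in wild type and -0.48 (SE 0.08) in A391T. For *Galc*, *Gla*, *Arsa*, *Asah1* and *Smpd1*, the genes of Krabbe, Fabry, metachromatic leukodystrophy, Farber and Niemann-Pick disease, the wild-type log2 fold changes ran from -0.05 to 0.05 with standard errors of 0.05 to 0.09. Their median absolute value together with *Hexa* was 0.03, against 0.46 over all genes. In A391T that median was 0.10, against 0.45 over all genes, and *Gla* was at 0.18 (SE 0.11). In wild-type TPM, *Arsa* (30.6 to 34.1 in cortex, 36.9 to 38.05 in cerebellum) and *Smpd1* (206 to 216, 218 to 233) did not overlap between regions. Oligodendrocyte markers, which mark the cells that make myelin, were called higher in wild-type cerebellum for 1 of 8 genes and lower for 1. Their summed level was 5128 to 5874 CPM in cortex and 4625 to 6862 CPM in cerebellum. Their part in the result was not tested.

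Of the cofactors, *Gm2a*, which presents the ganglioside GM2 to beta-hexosaminidase, was higher in wild-type cerebellum with a log2 fold change of 0.26 (SE 0.07, adjusted p = 0.0083), opposite to *Hexa*. *Gm2a* was at 61.5 ± 4.99 TPM in cortex against 81.5 ± 3.00 TPM in cerebellum. *Psap* (-0.04, SE 0.07) and *Ctsa* (-0.07, SE 0.05), the protective protein of beta-galactosidase and neuraminidase, were not called. Of the membrane and cholesterol export genes, *Lamp1*, *Lamp2* and *Npc2* were higher in wild-type cerebellum, by 0.27 (SE 0.06), 0.27 (SE 0.07) and 0.24 (SE 0.08). The *Npc2* call was lost under the names of the RPKM table (0.16, adjusted p = 0.097, or 0.067 with the replicate block). With only the mice with matching names, the calls of *Lamp1* (0.21, adjusted p = 0.14), *Lamp2* (0.17, adjusted p = 0.23), *Npc2* (0.12, adjusted p = 0.41) and *Gm2a* (0.19, adjusted p = 0.28) were lost. *Npc1*, the partner that takes over cholesterol from *Npc2*, was not called (-0.02, SE 0.10).

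Markers of other cell types also differed between regions. All 11 microglia markers were lower in wild-type cerebellum, with a summed level of 490 to 594 CPM in cortex and 156 to 165 CPM in cerebellum, and likewise in A391T, with 474 to 559 and 146 to 180 CPM. The members *Ids*, *Arsb*, *Man2b1*, *Hexa*, *Gaa*, *Glb1* and *Gusb* were also lower in wild-type cerebellum, while more members were higher there. Of 8 astrocyte markers 4 were higher and 2 lower in wild-type cerebellum (4312 to 4766 CPM in cortex, 5226 to 5678 CPM in cerebellum). Choroid plexus markers ranged from 38.8 to 2823 CPM among the wild-type cerebellum libraries and from 7.29 to 25.0 CPM in wild-type cortex, and the lowest of the cerebellum values was that of CBLM479. None of the markers found was at 0 in every library, and the part of these cell types in the results was not tested.

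In the A391T mice 9 member entries were higher in cerebellum and 7 were lower, against 31.6% and 31.3% of all 16005 genes tested. *Ids* was again the 1 member past the 2-fold criterion, against 14.9% of all genes lower and 9.8% higher by that rule. The calls of 13 members were shared with wild type, 68.4% of the 19 wild-type and 81.2% of the 16 A391T calls, and all 13 had the same direction. Of all genes' calls, 81.8% of those in wild type and 88.5% of those in A391T were shared in the same direction. The 13 were *Fuca1*, *Hgsnat*, *Lamp2*, *Manba*, *Naglu*, *Npc2* and *Sgsh*, higher in cerebellum, and *Arsb*, *Gaa*, *Glb1*, *Hexa*, *Ids* and *Man2b1*, lower. *Gm2a*, *Gusb*, *Hyal1*, *Hyal2*, *Idua* and *Lamp1* passed the test in wild type alone, although their difference between genotypes was not called (below). With library totals in place of TMM scaling, the median of all genes moved by 0.12 in wild type and by 0.13 in A391T on the log2 scale, and the A391T calls became 16 higher and 7 lower.

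Leaving out CBLM445 added 7 calls to the A391T comparison of regions and ended 1. In this library 17 of the 32 entries lay more than 0.3 on the log2 scale from the median of the other 3 libraries of its group, against 2, 2 and 3 entries for the others. *Lamp1* was at 395 TPM in it and at 696, 704 and 723 TPM in the other 3. *Psap* was at 4029 TPM against 2869, 2806 and 2836 TPM, and *Ctsa* at 52.1 against 82.3, 85.0 and 84.2 TPM. *Lamp1* and *Ctsa* were thus far below and *Psap* far above their group. The pan-neuronal markers in this library summed to 4818 CPM, the lowest of the A391T cerebellum libraries (up to 6165 CPM), its astrocyte markers to 4299 CPM against 5435 to 5798 CPM in the other 3, and its cerebellum and cortex markers stood at 5841 and 61.9 CPM. It also had the lowest share of entries on no feature (10.2%) and not uniquely aligned (8.41%) and the highest ambiguous share (2.75%) of the 16 libraries. The part of these values in the difference was not tested. Without this library, a choice made after its values were seen, 13 entries were higher in cerebellum and 9 lower, against 36.6% and 36.1% of all 16226 genes then tested. These 22 calls included the 19 of wild type, in the same direction, whereas 92% of all genes' wild-type calls recurred in this way. *Idua* (0.33, SE 0.07), *Hyal1* (0.52, SE 0.16), *Lamp1* (0.35, SE 0.04) and *Gm2a* (0.30, SE 0.05) were then among the calls, and *Aga* was not (0.26, SE 0.11, adjusted p = 0.061).

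**Figure D4:**
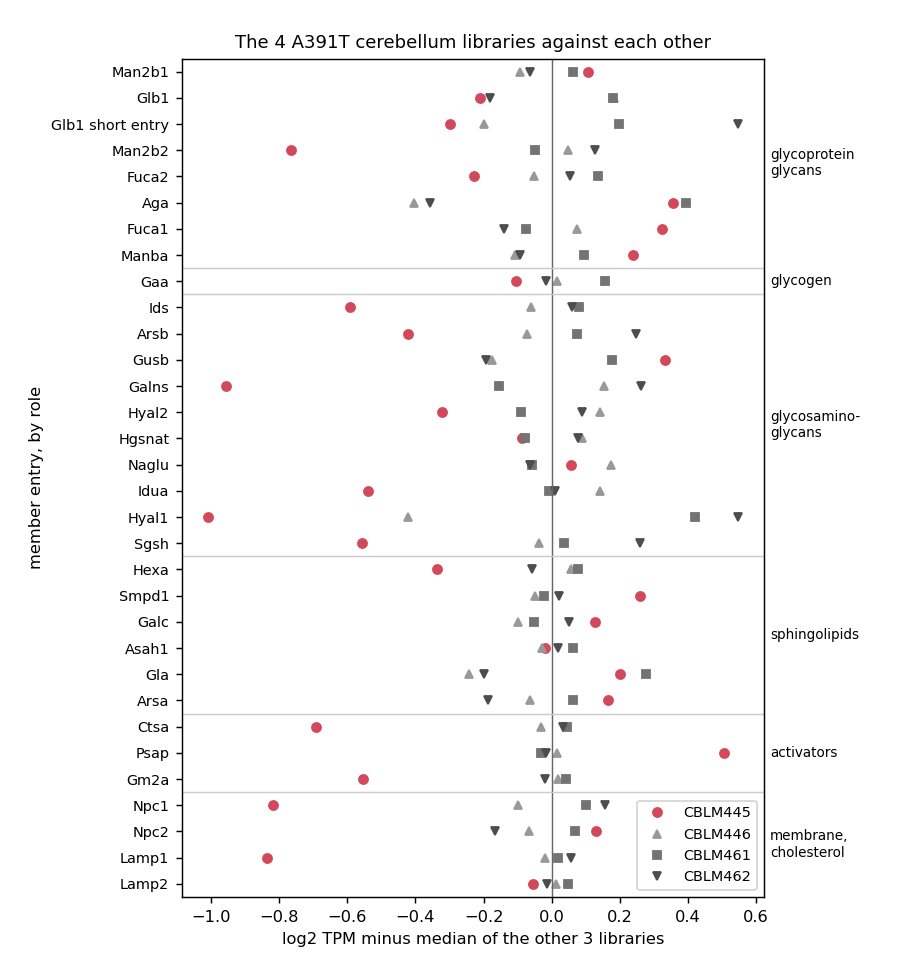
Log2 TPM of each member entry in each A391T cerebellum library minus the median of the other 3 libraries of the group, with entries grouped by role. CBLM445 (red circles) lies more than 0.3 from 0 for 17 entries and reaches -1.01 for *Hyal1* and 0.51 for *Psap*, while the other 3 libraries exceed 0.3 for 2, 2 and 3 entries.

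Because the genotype of 4 mice is uncertain, cerebellum was also compared with cortex over all 8 mice with mouse as a block, which does not use genotype. This fit was added after the data were seen. It called 13 member entries higher in cerebellum and 8 lower, against 38% and 35.2% of all 15909 genes tested. *Ids* (-1.45, SE 0.07), *Arsb* (-0.74, SE 0.10), *Man2b1* (-0.64, SE 0.06), *Manba* (0.70, SE 0.06), *Sgsh* (0.61, SE 0.13) and *Hyal1* (0.55, SE 0.13) kept their direction and their call. *Fuca2* (0.16, SE 0.06), *Ctsa* (-0.15, SE 0.06) and the shorter *Glb1* entry (-0.44, SE 0.12) were called in it without being called in wild type, and *Gusb* was not called (-0.16, SE 0.07, adjusted p = 0.065).

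No member was called different between A391T and wild-type mice. In cortex 0 of 32 entries passed edgeR's test at an adjusted p under 0.05, and 1, *Galns*, had an unadjusted p under that value (log2 fold change 0.23, SE 0.09), while 0.0126% of all 15815 genes were called and 4.73% had such an unadjusted p. The members' log2 fold changes in cortex ran from -0.11 for *Hexa* to 0.23 for *Galns*, with standard errors of 0.05 to 0.16. In cerebellum 0 of 32 passed and 1, *Asah1*, the acid ceramidase, had an unadjusted p under 0.05 (0.15, SE 0.07), while 0% of all 15668 genes were called and 8.55% had such an unadjusted p. There the values ran from -0.24 for *Hyal1* to 0.25 for *Aga*, with standard errors of 0.06 to 0.21. DESeq2 called 0 members in either region and 14 and 30 genes in all. The standard errors leave room for small differences, so a p that misses the threshold does not show equal levels.

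**Figure D5:**
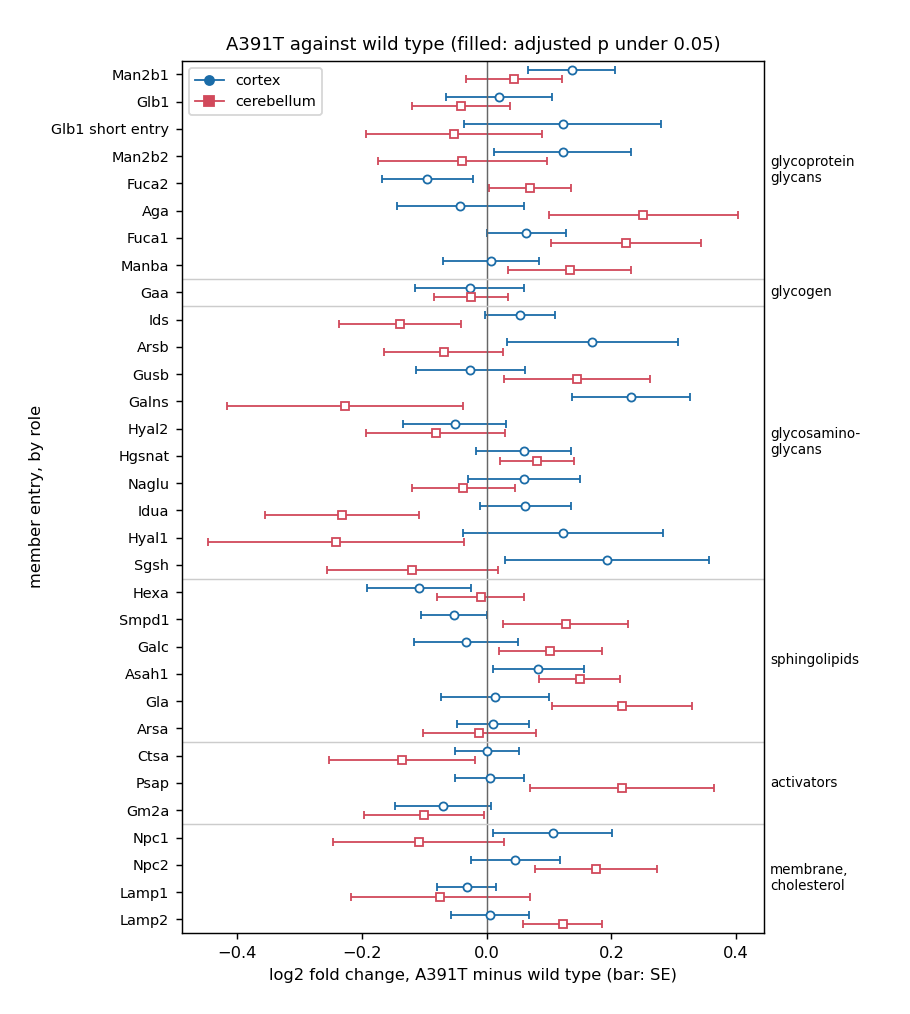
Log2 fold change of each member entry, A391T minus wild type, in cortex (circles) and cerebellum (squares), with bars for the standard error and open symbols where the adjusted p was 0.05 or above. Every symbol is open, the values lie between -0.24 and 0.25, and the bars are wider in cerebellum for 21 of the 32 entries.

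The difference between regions was not shown to depend on genotype for any member. The interaction of region and genotype passed the test for 0 of 32 entries and for 0% of all 16589 genes with edgeR, and DESeq2 called 0 members and 1 gene in all. With an unadjusted p under 0.05, which 4.85% of all genes had, there were 2 members, *Galns* (-0.47, SE 0.22, adjusted p = 0.77) and *Idua* (-0.31, SE 0.14, adjusted p = 0.77). Both were lower in CBLM445 than in the others of that group, *Galns* at 5.83 against 10.2 to 12.2 TPM and *Idua* at 15.0 against 21.7 to 23.9 TPM. For *Hyal1* the interaction was -0.38 (SE 0.27).

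Other genes of the lysosome differed between regions in both directions as well, in lists described by their counts alone. These counts stand beside 34.7% of all genes called higher and 33.1% called lower in wild-type cerebellum. Of the 18 subunits of the vacuolar proton pump, which acidifies the lysosome and also synaptic vesicles, 14 were lower in wild-type cerebellum and 1 was higher, with a median log2 fold change of -0.48 against 0.02 over all genes. The largest differences were those of *Atp6v1d* (-1.03, SE 0.09) and *Atp6v1h* (-0.78, SE 0.09). Pan-neuronal markers were also lower in cerebellum for 3 of 6 genes and higher for 2, with summed levels of 7236 to 7671 CPM in cortex and 6007 to 6241 CPM in cerebellum, and their part in the result was not tested. Of the 5 transcription factors of lysosomal biogenesis that were tested, out of 6 listed, 4 were higher in wild-type cerebellum and none was lower, among them *Tfeb* (1.12, SE 0.11) and *Mitf* (0.87, SE 0.09). Among the 26 members with a promoter entry, the motif TCACGTG printed above was held by 3 of the 11 called higher in wild-type cerebellum (*Sgsh*, *Naglu* and *Lamp1*), by 2 of the 7 called lower (*Glb1* and *Gaa*) and by 3 of the 8 not called (*Arsa*, *Gla* and *Ctsa*).

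Of 17 other glycan-degrading enzymes, 6 were higher and 5 lower in wild-type cerebellum, with a median of 0.07. *Hpse*, heparanase, which cuts heparan sulfate inside the chain, had the largest difference (-3.18, SE 0.28), from 1.83 ± 0.208 TPM in cortex to 0.219 ± 0.11 TPM in cerebellum. Of 19 tested cathepsins and other hydrolases, out of 20 listed, 6 were higher and 7 lower, with *Ctss* at -1.53 (SE 0.13) and *Dnase2a* at 1.12 (SE 0.09). *Ctss* is known to be abundant in microglia, whose markers were lower in cerebellum as given above, and the part of microglia in its difference was not tested. Of 11 genes for mannose 6-phosphate tagging and sorting 4 were higher and 3 lower, led by *Sort1* (-1.48, SE 0.10) and *Sorl1* (0.88, SE 0.13), and of 17 lysosomal membrane transporters and channels 9 were higher and 6 lower, led by *Tpcn2* (2.10, SE 0.13) and *Laptm5* (-1.62, SE 0.06). All of these named genes had the same direction in A391T mice and passed the test there.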

How the data were processed

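PolyA-selected directional libraries were sequenced, and according to the study's methods the authors aligned them to mm9 using STAR, with HTSeq counts over Ensembl genes. The authors deposited raw counts per gene, which they labelled as made without regard to strand, and a table of RPKM values with a gene length per gene. The RPKM columns were used only to check the library names. For 8 of 16 columns the values were proportional to the counts of a library with another name. Rows that name no gene stayed out of totals and tests (10.2% to 13.2% of entries on no feature, 2.20% to 2.75% ambiguous, 8.41% to 12.1% not uniquely aligned).

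Counts were tested with edgeR 4.0.16 (R 4.3.3) (filterByExpr, TMM, quasi-likelihood F test) and p-values adjusted over every gene tested by the Benjamini-Hochberg method, on the 8 libraries of each comparison or on all 16 for the interaction. The fits were also run on simulated counts with 197 of 15871 genes (region) and 194 of 15686 (genotype in cortex) changed by 1.5 on the log2 scale. They called 189 and 190 of the changed genes, and 12 and 17 unchanged ones. These changes were fewer than those between regions and larger than those of most members, so the simulation does not check calls of that size. Standard errors were taken from the fold change and its F statistic. TPM was computed from counts and the deposited gene length. Alternatives were DESeq2 1.42.0, library totals or RLE in place of TMM, 2 other filters for low counts and other library names. Further ones were all 16 libraries in 1 model, exon bases for gene length, a replicate block and leaving out each library. Gene positions and overlaps of exons came from the NCBIM37 annotation and promoters from RefSeq on GRCm38.p6.

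Members and lists were chosen with earlier results of these data known. All members were named, with a value per library for those past 2-fold, for the 3 largest differences called in each direction in wild type and for the 3 highest mean TPM, and of every other list up to 2 genes with the largest called difference. One gene that this rule names is not reported here. The study took both regions from the same animals, which pairs the samples, although the deviations of the 2 regions of one mouse correlated from -0.25 to 0.30 in wild type and from -0.21 to 0.17 in A391T. The p-values measure the spread between mice.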

Additional observations from a re-analysis of the deposited data

Results flagged for a closer look

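Each member entry was examined in each group of 4 libraries for 1 library far from the other 3, by the ratio of its gap to the group's range (above the Dixon limit). This was 128 groups, of which chance alone flags about 1 in 20, and 10 were found. In 6 of them the library was CBLM445 of A391T cerebellum, with *Ids* at 66.0 TPM (others 95.5 to 101), *Psap* at 4029 TPM (2806 to 2869), *Gm2a* at 54.5 TPM (79.0 to 81.4), *Ctsa* at 52.1 TPM (82.3 to 85.0), *Smpd1* at 269 TPM (221 to 228) and *Lamp1* at 395 TPM (696 to 723). The A391T cortex library CTX461 was high for *Asah1* at 50.0 TPM (45.0 to 45.8) and for *Lamp2* at 29.4 TPM (26.8 to 27.1), and its striatum markers summed to 225 CPM against 555 to 763 CPM in the other A391T cortex libraries. In wild type, *Man2b1* was at 34.9 TPM in CBLM479 (36.3 to 36.5) and *Galc* at 33.6 TPM in CTX480 (28.3 to 28.8). What set these libraries apart was not tested.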

How the results depend on the processing

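All members called in the main comparison of regions kept their direction under every alternative that was run. Of the 19 wild-type calls 10, and of the 16 A391T calls 12, were kept in all of them. With only the mice whose names match, 2 per genotype, 10 members were called in wild type, where *Arsb*, *Gaa*, *Glb1*, *Gm2a*, *Gusb*, *Hyal2*, *Lamp1*, *Lamp2* and *Npc2* were lost. In A391T *Aga*, *Fuca2*, *Naglu* and *Sgsh* were lost, and 2 passed the 2-fold criterion, *Ids* and *Arsb* (-1.03). This alternative has fewer libraries. Under the names of the RPKM table the counts were 17 in wild type, without *Hyal2* and *Npc2*, and 16 in A391T, where *Aga* was lost and 1 other was called. With that naming and the replicate block *Fuca2* was lost too. With mouse as a replicate block, which pairs the regions of a mouse, 19 members were called in wild type and 15 in A391T, where *Aga* was lost and no other call changed. The other scalings, filters and DESeq2 gave 18 to 20 calls in wild type and 16 to 23 in A391T. All 16 libraries in 1 model gave 18 in wild type, without *Gusb*, and 20 in A391T. Leaving out 1 library gave 18 to 20 in wild type and 14 to 22 in A391T, and 1 past the 2-fold criterion in every case. *Gusb* and *Hyal2* in wild type and *Aga* and *Sgsh* in A391T lost their call without some single libraries (*Sgsh* without CTX445, CTX462 or CBLM462, adjusted p = 0.06 to 0.067). In the genotype comparisons and the interaction, 0 members were called by edgeR or DESeq2 under every alternative run. Counting error is relatively largest for the members with the fewest counts, such as *Hyal1* with 59 to 149 per library. Its part in their results was not tested.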
